A study of Mus musculus with 22 samples.

Results

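H3K4me3, trimethylation of lysine 4 of histone H3, marked 402 broad stretches of the autosomes in all 5 cell types of a mouse neocortical lineage, and none of these stretches overlapped a peak of the Polycomb mark H3K27me3. They were chosen from the deposited peak lists alone. H3K4me3 peaks of the 5 cell types that shared at least 1 bp were joined, which gave 17229 regions, of which 16571 were autosomal and 11345 of those had a peak in every cell type. These 11345 are called constitutive here. Of the constitutive regions, 8631 overlapped no H3K27me3 peak in any cell type, and 402 of these were at least 3000 bp wide. The 402 broad regions were 2.33% of all joined regions. The presence, the width and the lack of H3K27me3 therefore chose them, and these values are given below only as a description.

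The study profiled both marks by chromatin immunoprecipitation and sequencing in purified cells of C57BL/6JOlaHsd embryos. The earliest cells, neuroepithelial (NEC), were taken at E9.5 (E for embryonic day) and are the progenitors from which all other types descend. At E14.5 the study took neurons (N) and radial glia of 3 kinds, namely basal (bRG), which divide away from the ventricle, and apical ones in a proliferative (aRG-P) or a neurogenic (aRG-N) state. Each cell type and mark had 2 samples, and the 2 of aRG-N H3K27me3 are technical replicates by their labels. The labels name no transgene or treatment, and how the cells were purified is not given in the sources used here. NEC is the only early cell type, so stage and cell type cannot be told apart in any comparison with it. The cell types could not be checked against marker genes, because regions could not be assigned to genes.

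H3K4me3 is written by methyltransferases of the SET1 and MLL families, and most of it lies at the start sites of active or poised genes, often over CpG islands. PRC2, the Polycomb repressive complex that writes H3K27me3, acts mainly at silent developmental genes, and some promoters carry both marks. Most H3K4me3 peaks are narrow. Broad H3K4me3 domains have been described in many cell types at genes of cell identity and at highly and steadily transcribed genes.

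Each cell type and mark was represented by a single peak list called on combined samples. No value below therefore has a spread between replicates, no difference between cell types was tested, and read depth is not known for any list. The H3K4me3 lists held 14801 to 17867 peaks and the H3K27me3 lists 3476 to 9460. The typical H3K4me3 peak was longest in NEC, with a median of 1002 bp, and shortest in aRG-P, with 631 bp. Positions are 1-based in mouse build mm9 and carry no gene names, since the gene table at hand was for another build.

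The broad regions were uncommon among constitutive regions and rarely very long. They made up 4.66% of the constitutive regions without H3K27me3 (exact 95% binomial interval 4.22 to 5.12%). Such intervals cover counting error over regions only. Their median width was 3544 bp, the middle 50% lay between 3217 and 4034 bp, and 90% were no wider than 5000 bp. They covered 1.53 Mb in all. Absence of H3K27me3 was less frequent among wide constitutive regions than among narrower ones, with 62.5% of 643 (58.6 to 66.3%) against 76.9% of 10702 (76.1 to 77.7%). A wider region has more bases on which an H3K27me3 peak can fall, and this was not adjusted for. The other 241 wide constitutive regions overlapped an H3K27me3 peak in at least 1 cell type and serve below as a comparison, beside the 8229 narrower regions without H3K27me3. These 241 passed the same width limit but ran wider than the members, with a median of 3913 bp, and 54 of them were 5000 bp or wider against 41 of the 402.

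The width limit cut between regions of nearly the same width. The narrowest members lay on chromosome 2 from 29921195 to 29924195 (3001 bp) and on chromosome 9 from 26836106 to 26839110 (3005 bp). The widest regions left out were on chromosome 5 from 115606279 to 115609275 (2997 bp) and from 31013561 to 31016554 (2994 bp). In the narrowest member the peaks covered 2771 bp in NEC, 1877 bp in aRG-P, 2127 bp in aRG-N, 1937 bp in bRG and 2261 bp in N. In the widest region left out these lengths were 2964, 1443, 2054, 1490 and 1357 bp in the same order. They were 2578, 2435, 2488, 2343 and 2619 bp in the chromosome 9 member. In the other region left out they were 2743, 2654, 2581, 2807 and 2699 bp, longer than in the narrowest member in every list but NEC. The regions left out were thus not shorter throughout. No list held a single peak of 3000 bp or more in any of these 4 regions.

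The H3K4me3 list of NEC set most of the width. Covered length, the number of bases of a region under peaks of a list, had a median over the 402 regions of 3330 bp in NEC, 2934 bp in aRG-N, 2568 bp in bRG, 2498 bp in N and 2289 bp in aRG-P. As a share of the region this was 97.0% in NEC, 82.5% in aRG-N, 73.0% in bRG, 70.2% in N and 62.8% in aRG-P. The order was that of the 8229 narrow regions, where the shares were 98.5%, 80.0%, 69.7%, 69.0% and 61.5%. It followed the typical covered length of each list over all constitutive regions, which was 1355 bp in NEC, 1104 bp in aRG-N, 968 bp in bRG, 966 bp in N and 867 bp in aRG-P. On the log2 scale the NEC list lay 0.64 above the aRG-P list and 0.49 above the N list. Divided by these typical lengths, the broad regions were 2.46 times the typical length in NEC and 2.59 to 2.66 times in the E14.5 lists. Cell types are therefore compared below after this division, called scaling, and unscaled values are given where they differ.

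**Figure D1:**
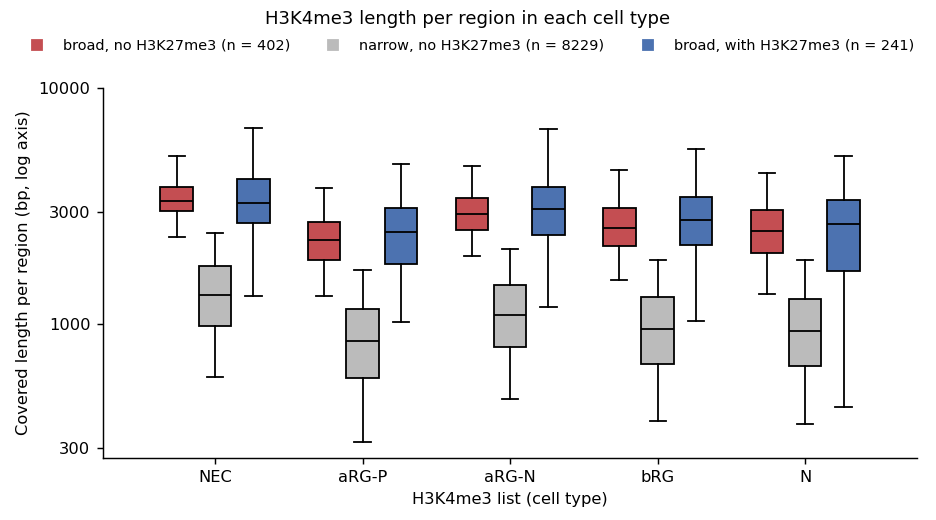
Covered length per region in base pairs, on a log axis, for each H3K4me3 list. Boxes give the median and quartiles and whiskers the 5th and 95th percentiles over regions, for the 402 broad regions, the 8229 narrow regions and the 241 broad regions with H3K27me3. The broad regions were chosen by width, and their medians run from 2289 bp in aRG-P to 3330 bp in NEC.

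The outer edges of the regions told the same. The NEC list set both edges in 199 of the 402 regions (49.5%) and 1 edge in a further 155. The aRG-N list set both edges in 12 regions, N in 7, aRG-P in 1 and bRG in 0. Bases covered in NEC and in no other list summed to 215 kb over the members, against 27 kb covered in aRG-N alone, 16.9 kb in N alone, 4.66 kb in bRG alone and 1.07 kb in aRG-P alone. A region could thus pass 3000 bp through NEC alone. Joined without the NEC list, 207 regions of 3000 bp or more remained by the same rule, and 203 of them overlapped one of the 402. The lead of NEC was not particular to the members. Bases covered in NEC alone summed to 215 kb of 1.53 Mb in the members and 2842 kb of 18.5 Mb over all constitutive regions. Unscaled, NEC covered the most bases in 284 of the 402 members and in 8749 of the 11345 constitutive regions. Edge counts are given for the members only.

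Few of the regions were a single long peak in every cell type. A single peak of at least 3000 bp was present in all 5 lists in 18 members, in 4 lists in 31, in 3 lists in 29, in 2 lists in 51 and in 1 list in 186. In 87 members (21.6%) no list had such a peak, and the width came from staggered or neighbouring peaks. NEC had one in 262 members, aRG-N in 152, bRG in 78, N in 66 and aRG-P in 31. Over all constitutive regions the shares with such a peak were 3.49% in NEC, 2.27% in aRG-N, 1.28% in bRG, 1.21% in N and 0.599% in aRG-P, from which nothing is read because width chose the members.

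Within the members the mark was often broken into several peaks, more so in some lists than in others. The NEC list had a single peak in 291 members (72.4%) and the aRG-N list in 272 (67.7%). The bRG list had one in 178 (44.3%), the N list in 174 (43.3%) and the aRG-P list in 126 (31.3%). Over all constitutive regions a single peak was found in 89.4% in NEC, 91.5% in aRG-N, 82.5% in bRG, 80.0% in N and 76.5% in aRG-P. All 5 lists had a single peak in 56 members (13.9%), against 61.1% of all constitutive regions. Wide regions have room for more peaks and width chose the members, so nothing is read from the lower shares. What part width or the way each list was called had in them was not tested. From first to last peak the aRG-P list spanned a median of 70.4% of the region and covered 62.8%, so part of its shortfall was gaps inside the region and part was edges that lay further in. For N the values were 76.8% and 70.2%.

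Most of the regions kept a shared core. Bases covered in all 5 lists made up a median of 55.9% of a member, or 1988 bp, and 0.829 Mb of the 1.53 Mb overall. That share was 53.6% in the narrow regions, 52.1% over all constitutive regions and 39.9% in the wide regions with H3K27me3. A shared core was thus not particular to the members. Every list covered at least 50% of the region in 299 members (74.4%). Coverage fell below 50% in 74 members in aRG-P, 61 in N, 40 in bRG, 11 in aRG-N and 4 in NEC. It fell below 25% in 6 members in N, 5 in aRG-P, 3 in NEC, 1 in aRG-N and 0 in bRG. Counts at the 50% and 25% limits were made for the members only, so they do not set the members apart from other regions. The order of the lists at 50% was that of the median share covered, which was similar in the narrow regions. That median was 62.8% in the members and 61.5% in the narrow regions in aRG-P, and 70.2% and 69.0% in N. It was 73.0% and 69.7% in bRG, 82.5% and 80.0% in aRG-N, and 97.0% and 98.5% in NEC. Only 1 member, on chromosome 1 from 179374445 to 179378788, had no base that all 5 lists covered.

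**Figure D2:**
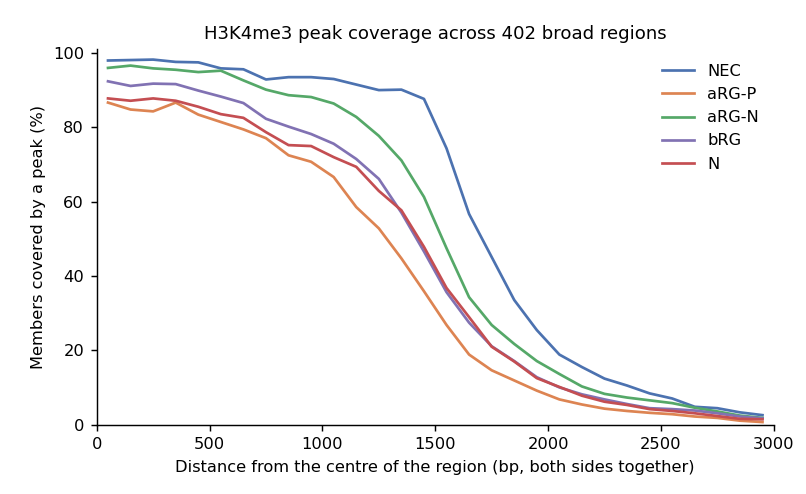
Share of the 402 broad regions covered by a peak, in percent, against the distance from the centre of the region in base pairs, with both sides combined and 1 line per H3K4me3 list. At 350 bp from the centre the share was 97.6% in NEC and 86.7% in aRG-P, and at 1550 bp it was 74.4% in NEC, 47.5% in aRG-N, 36.8% in N, 35.7% in bRG and 26.9% in aRG-P.

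The highest points of H3K4me3 were spread over a larger distance in the broad regions than in narrow ones, and over a similar share of the width. The summit of the strongest peak was taken from each list, and the 5 summits of a member lay a median of 652 bp apart, against 197 bp in the narrow regions. As a share of the region the spread was 18.3% and 15.3%. The 5 summits fell within 200 bp in 66 members (16.4%, against 44.8% of all constitutive regions) and were more than 1000 bp apart in 129 (32.1%, against 3.82%). Of the wide regions with H3K27me3, 41.1% had summits more than 1000 bp apart. The 5 summits thus lay more than 1000 bp apart in a sizeable part of the broad regions. Width chose the members, and such distances can grow with width. A single list with a displaced summit is enough for a large spread. Without replicates, shifts between cell types cannot be told from scatter in where a summit was called.

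The broad regions also ranked high in fold enrichment, the authors' value for how far a peak rises above background. Within its own list, the strongest peak of a member stood at a median percentile of 89.8 in NEC, 84.3 in bRG, 84.2 in aRG-N, 83.9 in aRG-P and 82.6 in N. Narrow regions without H3K27me3 stood at 72.6, 66.2, 66.2, 67.7 and 66.8 in the same order. Wide regions with H3K27me3 had medians of 69.1, 66.2, 68.3, 67.7 and 70.2, close to the narrow ones despite their width. Read per width class, members of 3000 to 3500 bp had a median mean percentile over the lists of 83.5 (189 regions) and those of 5000 bp or more one of 85.8 (41 regions). Wide regions with H3K27me3 had 67.3 (87 regions) and 69.7 (54 regions) in these classes. Among the 402, width and mean percentile were almost unrelated (Spearman correlation 0.03 over 402 regions that share lists), whereas over the 8229 narrow regions the correlation was 0.50. Height and width come from the same reads and the same lists that chose the members, so these ranks are a description.

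**Figure D3:**
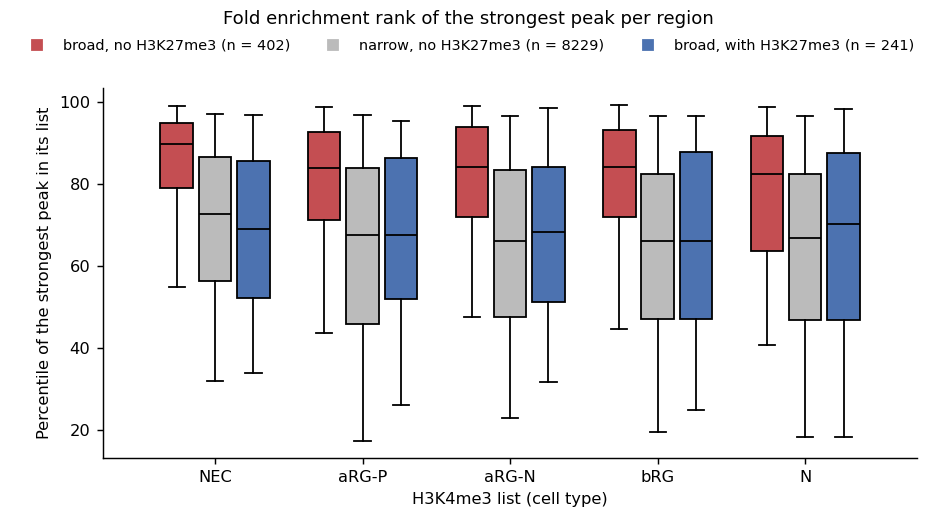
Percentile of the strongest peak of each region within its own H3K4me3 list, ranked by fold enrichment. Boxes give the median and quartiles and whiskers the 5th and 95th percentiles over regions, for the 402 broad regions, the 8229 narrow regions and the 241 broad regions with H3K27me3. Medians of the broad regions lay between 82.6 and 89.8, and those of the broad regions with H3K27me3 between 66.2 and 70.2.

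The strongest peak was in the top 10% of the list in 201 members (50%) in NEC, 150 (37.3%) in aRG-N, 145 (36.1%) in bRG, 143 (35.6%) in aRG-P and 124 (30.8%) in N. Over all constitutive regions these shares were 16.2%, 13.6%, 13.1%, 14.2% and 12.8%. In 30 members (7.46%, against 2.05% of all constitutive regions) it was in the top 10% of all 5 lists. In 2 members (0.498%, against 14.3%) it was below the middle of every list.

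The 3 members with the highest mean percentile all lay on chromosome 11. The first, from 77796165 to 77799286 (3122 bp), had a fold enrichment of 15.4 in N, 19.8 in bRG, 27.6 in aRG-N, 23.6 in aRG-P and 58.6 in NEC. These values put it at percentile 99.6 or higher in every list. One peak covered 2424 to 3122 bp of it in each list, and its summits lay within 131 bp. An H3K27me3 peak lay 4321 bp away. The next, from 98655445 to 98659155 (3711 bp), was a single peak in every list that covered 3656 bp in NEC, 3105 bp in aRG-P, 3567 bp in aRG-N, 3358 bp in bRG and 3681 bp in N, so each of the 5 peaks passed 3000 bp. The last, from 69792767 to 69796361, was covered over 3595 bp in NEC and 1709 bp in N, with fold enrichments of 51.2 and 13.7. All 3 ranked near the top of every list, while their lengths varied between lists by different amounts.

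The 5 widest members were mostly made of several peaks in the E14.5 lists and, at 4 of the 5, of a single peak in NEC. The widest of all, on chromosome 5 from 123586825 to 123595175 (8351 bp), was covered over 8157 bp in NEC, 4622 bp in aRG-P, 7461 bp in aRG-N, 7313 bp in bRG and 7326 bp in N. NEC covered it with 1 peak, aRG-N and bRG with 3 each, N with 5 and aRG-P with 6. A region on chromosome 18 from 83078642 to 83086759 (8118 bp) was 1 peak over its whole length in NEC. There the other lists covered 3614 bp in aRG-P, 5719 bp in aRG-N, 4846 bp in bRG and 4053 bp in N, and the summits lay 5396 bp apart.

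The other 3 of the 5 widest were more even. On chromosome 11 from 120094233 to 120101845 (7613 bp) the peaks covered 7613 bp in NEC, 4572 bp in aRG-P, 4925 bp in aRG-N, 5141 bp in bRG and 5371 bp in N. On chromosome 3 from 88333730 to 88341225 (7496 bp) they covered 7173, 5321, 7478, 6698 and 6367 bp in the same order, with 1 peak in aRG-N and 4 in both aRG-P and N. On chromosome 18 from 55145075 to 55152280 (7206 bp) they covered 6501, 4143, 6590, 5571 and 4504 bp. The chromosome 3 region had the largest shared core of the 5, with 5032 bp covered in all lists, and the chromosome 18 region at 83078642 the smallest, with 3171 bp. Unscaled length was thus greatest in NEC at 3 of these 5 regions and in aRG-N at 2. After scaling it was greatest in NEC at 2, the chromosome 18 region at 83078642 and the chromosome 11 region, in N at the chromosome 5 region, in bRG at the chromosome 3 region and in aRG-N at the other chromosome 18 region.

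The study design asks how the marks differ along the lineage from early progenitor to neuron, and after scaling the length of H3K4me3 at the broad regions varied between the lists about as much as at narrow ones. After scaling, the variation of covered length over the 5 lists, as a coefficient of variation, had a median of 0.126 in the 402 members, 0.130 in the narrow regions and 0.261 in the wide regions with H3K27me3. A difference of at least 2 times in any of 7 pairs of cell types was found in 37 members (9.20%), against 13.5% of all constitutive regions, 8.41% of the narrow regions and 45.2% of the wide regions with H3K27me3. The members' share thus lay near that of the narrow regions and below that of the wide regions with H3K27me3. Within classes of width the median coefficient of variation was 0.122 in members of 3000 to 3500 bp and 0.141 in those of 5000 bp or more, against 0.209 and 0.336 with H3K27me3. In the narrow regions it was 0.155 below 1000 bp, 0.128 from 1000 to 2000 bp and 0.113 from 2000 to 3000 bp. Members thus varied somewhat more than the narrow regions nearest to them in width. The set with H3K27me3 was wider and had a lower mean percentile of fold enrichment, and the part of either in the difference was not tested. Without scaling 84 members (20.9%) differed, against 28.2% of all constitutive regions. Compared by the longest single peak, 120 (29.9%) did, against 22.1%, so by that measure the members' share lay above that of all constitutive regions.

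**Figure D4:**
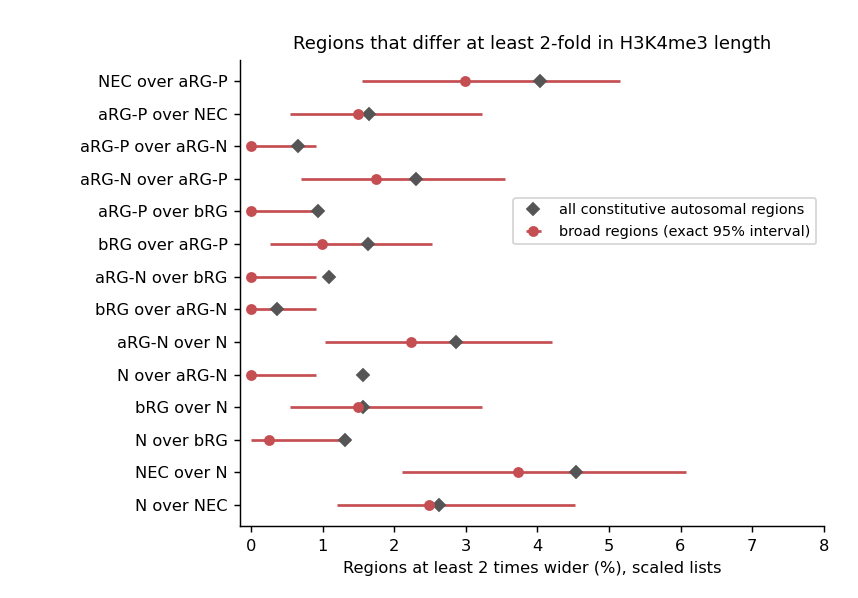
Regions at least 2 times wider in the first cell type than in the second, as a percentage, after scaling each list to its typical length. Red points are the 402 broad regions with exact 95% binomial intervals for counting error, and grey diamonds all 11345 constitutive autosomal regions. The shares of the broad regions run from 0 to 3.73% and lie below the grey diamond in each of the 14 rows.

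Between NEC and aRG-P, 12 members were at least 2 times wider in NEC (2.99%, against 4.04% of all constitutive regions) and 6 in aRG-P (1.49%, against 1.65%). Unscaled, these counts were 59 (14.7%, against 20.1%) and 3 (0.746%, against 0.405%). Between NEC and N, 15 were wider in NEC (3.73%, against 4.54%) and 10 in N (2.49%, against 2.63%), and unscaled 50 (12.4%, against 13.6%) and 3 (0.746%, against 0.873%). How often a region was wider in NEC than in aRG-P or N thus depended on the scaling. The median scaled ratio of NEC to aRG-P was -0.08 on the log2 scale and that of NEC to N was -0.03.

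Among the E14.5 cell types the broad regions were closer to each other. Against aRG-P, 7 members were at least 2 times wider in aRG-N (1.74%, against 2.31% of all constitutive regions) and 0 narrower (0.652%). For bRG against aRG-P the counts were 4 wider (0.995%, against 1.63%) and 0 narrower (0.934%). Between aRG-N and bRG there were 0 in each direction, where all constitutive regions had 1.09% wider in aRG-N and 0.361% wider in bRG. A count of 0 of 402 allows a share of up to 0.913% by the exact interval. Neurons were narrower than aRG-N in 9 members (2.24%, against 2.87%) and wider in 0 (1.56%). Against bRG they were narrower in 6 (1.49%, against 1.56%) and wider in 1 (0.249%, against 1.31%). Unscaled, 17 members were wider in aRG-N than in aRG-P (4.23%, against 6.23%), 10 wider in bRG than in aRG-P (2.49%, against 2.64%) and 17 wider in aRG-N than in N (4.23%, against 4.64%). In the opposite direction there were 0 in each case, and the counts between bRG and N were the same as after scaling.

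Covered lengths also ranked the members more alike in the pairs of later cell types compared than between NEC and aRG-P or N. The Spearman correlation over the 402 regions was 0.84 between aRG-N and bRG, 0.82 between bRG and N, 0.79 between aRG-P and bRG, 0.74 between aRG-P and aRG-N and 0.67 between aRG-N and N. It was 0.39 between NEC and aRG-P and 0.32 between NEC and N. The corresponding values over all 11345 constitutive regions were 0.92, 0.89, 0.90, 0.88, 0.84, 0.80 and 0.75. Width chose the members, so their lower values are a description of the chosen set. NEC covered a median of 97.0% of a member, so the width limit fell most directly on the NEC lengths. The fall in the 2 correlations with NEC is therefore not read as a difference between cell types. All points are regions of the same 5 lists, and no p-value is given.

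Single members did depart from the even pattern. In 5 members (1.24%, against 1.80% of all constitutive regions) the scaled length in NEC was at least 2 times the median of the 4 E14.5 lists, and in 8 (1.99%, against 1.59%) it was at most 0.5 times that median. The 3 highest ratios were 2.94, 2.61 and 2.48. On chromosome 11 from 69208859 to 69212212 the peaks covered 3267 bp in NEC, 454 bp in aRG-P, 977 bp in aRG-N, 916 bp in bRG and 729 bp in N. On chromosome 10 from 91624897 to 91628147 they covered 3251, 522, 1759, 966 and 815 bp in the same order. On chromosome 13 from 114405069 to 114408830 they covered 3762, 1183, 927, 1034 and 1128 bp. At all 3 the mark covered over 3000 bp in NEC and about the length of a common narrow peak in most or all of the later lists. As the rule requires, none of them overlapped an H3K27me3 peak. The nearest H3K27me3 peak of any list lay 20.8 kb from the chromosome 11 region, 1145 kb from the chromosome 10 region and 433 kb from the chromosome 13 region.

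The opposite pattern, little covered length in NEC and more in every later list, was found at the 3 lowest ratios of 0.06, 0.07 and 0.17. At the chromosome 1 region from 179374445 to 179378788, the one with no shared base, NEC had a peak of 335 bp with a fold enrichment of 2.70, lower than almost all peaks of its list. There aRG-P covered 3271 bp, aRG-N 4232 bp, bRG 4066 bp and N 3825 bp. On chromosome 8 from 56039752 to 56043874 the lengths were 250 bp in NEC, 1449 bp in aRG-P, 2472 bp in aRG-N, 2937 bp in bRG and 4012 bp in N. On chromosome 2 from 6802906 to 6806299 they were 458, 1658, 2287, 1799 and 3102 bp in the same order, in 2 peaks in NEC, 3 in aRG-P, 2 each in aRG-N and bRG and 1 in N, the only list with a peak of 3000 bp or more there. All 3 lay over 400 kb from any H3K27me3 peak in the lists. They are constitutive only in the sense that 1 or 2 short NEC peaks were called inside them.

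**Figure D5:**
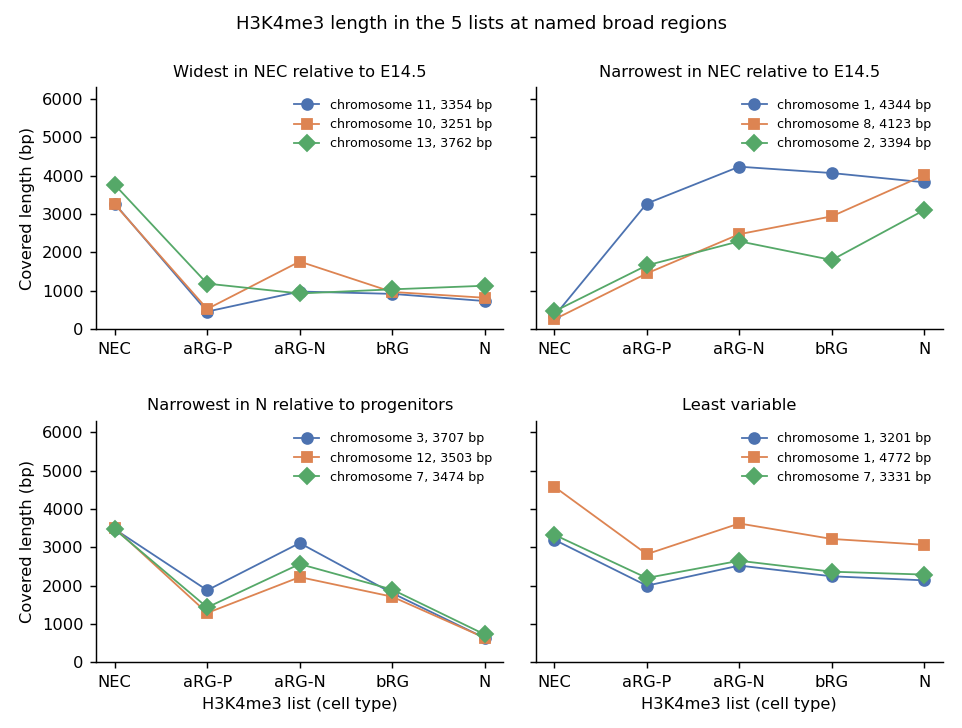
Covered length in base pairs in each of the 5 H3K4me3 lists, 1 line per region and without scaling, for the 3 members widest and the 3 narrowest in NEC relative to E14.5, the 3 narrowest in N relative to the progenitors, and the 3 with the least variation after scaling. In the least variable members the lines follow the typical length of each list, and in the others NEC or N lies far from most of the other lists.

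Neurons were compared with the median of the 4 progenitor types. In 6 members (1.49%, against 2.00% of all constitutive regions) the scaled length in N was at most 0.5 times that median, and in 1 (0.249%, against 0.608%) at least 2 times. The 3 lowest ratios were 0.28, 0.35 and 0.35. On chromosome 3 from 89029025 to 89032731 the lengths were 3476 bp in NEC, 1883 bp in aRG-P, 3114 bp in aRG-N, 1808 bp in bRG and 639 bp in N. On chromosome 12 from 25391663 to 25395165 they were 3503, 1291, 2226, 1715 and 644 bp, and on chromosome 7 from 129301488 to 129304961 they were 3474, 1436, 2567, 1901 and 731 bp. In all 3 N was shortest with and without scaling. NEC was longest in all 3 without scaling, and after scaling at the chromosome 12 and 7 regions, while at the chromosome 3 region aRG-N, at 2.82 times its typical length, passed NEC, at 2.57 times. At the chromosome 3 region the percentile of fold enrichment also went from 98.2 in NEC to 15.3 in N, while at the chromosome 12 region it was 87.5 in NEC and 85.2 in N, a short but still strong peak.

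The member with a ratio of at least 2 in N was the chromosome 8 region above (ratio 2.12), where length was smallest in NEC, larger in each of the radial glia lists and largest in N. The next 2, with ratios of 1.72 and 1.70, lay on chromosome 18 from 33619961 to 33624447 and at the chromosome 2 region above. The chromosome 18 region was covered over 2718 bp in NEC, 1795 bp in aRG-P, 2420 bp in aRG-N, 2961 bp in bRG and 3548 bp in N. Its strongest peak ranked low for a broad region, with percentiles from 24.8 in aRG-N to 49.5 in aRG-P.

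Radial glia differed from each other at few members. The highest ratio of aRG-N to aRG-P, 3.59, was on chromosome 11 from 69222229 to 69225909, where the lengths were 3668 bp in NEC, 747 bp in aRG-P, 3419 bp in aRG-N, 3243 bp in bRG and 2920 bp in N. The aRG-P list thus stood apart from all others there. This region also had the highest ratio of bRG to the median of both apical types, 1.69. Scaled length there was 0.86 in aRG-P, 3.10 in aRG-N and 3.35 in bRG. The ratio thus rested on the short aRG-P length, and bRG was close to aRG-N. Second by aRG-N over aRG-P, with 2.65, was the chromosome 10 region above. A region on chromosome 16 from 74408572 to 74413430, with 2.42, was covered over 3157 bp in NEC, 1494 bp in aRG-P, 4598 bp in aRG-N, 3496 bp in bRG and 2149 bp in N. Here length was greatest in aRG-N and smaller in neurons.

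In the reverse direction no ratio of aRG-N to aRG-P fell to 0.5. The lowest, 0.52, was on chromosome 9 from 24305412 to 24308529, with 1969 bp in NEC, 2670 bp in aRG-P, 1773 bp in aRG-N, 3013 bp in bRG and 2664 bp in N. The others were the chromosome 13 region above (0.62) and a region on chromosome 6 from 138368250 to 138371893 (0.64), covered over 3644, 1858, 1515, 1115 and 2630 bp in the same order. At the chromosome 6 region NEC and N were long and the radial glia short. For bRG, no member reached 2 times the median of both apical types (0.0793% of all constitutive regions did), and none fell to 0.5 times (0.661%). The second highest ratio, 1.57, was on chromosome 1 from 170356579 to 170362351, with 3328 bp in NEC, 2960 bp in aRG-P, 4171 bp in aRG-N, 5478 bp in bRG and 3624 bp in N. Its 5 summits lay within 39 bp although the covered length varied from 2960 to 5478 bp. The next, 1.55, was the chromosome 8 region.

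The least variable members had coefficients of variation of 0.02 to 0.03 after scaling. On chromosome 1 from 154748574 to 154751774 the lengths were 3201 bp in NEC, 2002 bp in aRG-P, 2526 bp in aRG-N, 2247 bp in bRG and 2141 bp in N. On the same chromosome from 162963965 to 162968736 they were 4583, 2824, 3624, 3221 and 3067 bp, and on chromosome 7 from 3643667 to 3646997 they were 3331, 2203, 2652, 2367 and 2292 bp. Their unscaled lengths differed between NEC and aRG-P by nearly the same proportion as the typical region of these lists did. Variation was lower in members of higher fold enrichment, with a Spearman correlation of -0.30 between the mean percentile and the coefficient of variation over the 402 regions, and -0.44 over all constitutive regions.

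The rule bars H3K27me3 peaks from the regions and sets no limit on their surroundings. The stretch that had to be free of them was longer in members (median width 3544 bp) than in narrow regions (1414 bp). What part this had in the distances below was not tested. The lists are restricted to peaks of transcripts per the file headers, so distances are to listed peaks only and can be too large. The nearest H3K27me3 peak of any list lay a median of 90.9 kb from a broad region, against 60.4 kb for the narrow regions without H3K27me3. Within 5000 bp there was one at 24 members (5.97%, interval 3.86 to 8.75%) and at 10.1% of the narrow regions (9.46 to 10.8%). The share over both kinds was 9.91%. By cell type the median distance from a member was 141 kb in NEC, 158 kb in aRG-N, 172 kb in N, 199 kb in aRG-P and 238 kb in bRG, so that lists with more H3K27me3 peaks, from 9460 in NEC to 3476 in bRG, had them nearer. That order also held for the narrow regions. Of the named members, the one on chromosome 11 at 77796165 and the one at 120094233 had an H3K27me3 peak within 5000 bp, at 4321 and 4990 bp.

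The broad regions lay on all 19 autosomes. Their share of a chromosome's constitutive regions was 3.54% over all autosomes, and ran from 2.01% on chromosome 12 (9 regions, interval 0.925 to 3.79%) to 4.81% on chromosome 18 (15 regions, interval 2.72 to 7.81%). Each chromosome's interval was wide enough to hold the overall share. The largest numbers were 37 on chromosome 11 and 36 on chromosome 7. The next member lay a median of 1499 kb away, and 40 members (9.95%) had another within 100 kb. Spacing was not computed for an equally sparse set of regions, so nothing is read from these 2 values. Other H3K4me3 regions were nearer, at a median of 19.8 kb, against 15.4 kb for narrow regions, and 109 members (27.1%) had one within 1000 bp, close to the 28.2% of narrow regions.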

How the data were processed

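Per the labels' protocols, a low-cell kit served for the immunoprecipitation and a MicroPlex kit for library preparation. Build mm9, bedtools, MACS2 and Bowtie 1.0.0 are named in the submitters' processing notes. The 10 deposited peak lists give no read numbers. Per the peak names, each was called on combined samples, most after duplicate removal, the aRG-P H3K27me3 list after leaving out a set, and the N H3K27me3 list on reads extended by 200 bp. The lists are restricted to peaks of transcripts per the file headers, and the headers of both apical H3K4me3 lists add a window of 2000 bp. Such steps can move peak edges and numbers between lists. The Input samples were not analysed here.

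From the deposited H3K4me3 lists, 4 kinds of value were used as the authors' peak caller gave them, namely positions, summits, the fold enrichment ratio, and −log10 of p and q. Of H3K27me3 only positions were used. Fold enrichment was ranked within a list only. Scaling divided a list's covered lengths by its median over the 11345 constitutive regions. Python 3.11.15, numpy 2.4.6, scipy 1.17.1 and matplotlib 3.10.9 were used. Intervals are exact Clopper-Pearson.

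Named regions were the 5 widest, those with the 3 highest and 3 lowest scaled ratios of NEC to E14.5, N to progenitors and aRG-N to aRG-P, the 3 highest of bRG to apical types, the 3 least variable, the 3 of highest mean percentile, and the 2 regions on each side of the width limit. The members and lists were chosen with earlier results of these data known. The code of the selection was checked on simulated data, where all 100 planted broad regions of 200 were found. Each planted broad region had a single peak per list over all or most of its width, so split or staggered peaks were not simulated. On chromosome 19, the 12 members that the code selected matched a base by base comparison. No reference sequence of mm9 was used here, so sequences and gene names are not given.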

Additional observations from a re-analysis of the deposited data

How the results depend on the processing

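No paired analysis was possible because each list combines the samples of a cell type and mark, and for the same reason no replicate could be left out. The number of broad regions depended on the width rule. It was 1941 at a minimum of 2000 bp, 107 at 4000 bp, and 659 with peaks joined across gaps of up to 1000 bp. In alternatives chosen after seeing the data it was 207 without the NEC list and 18 with a single peak of 3000 bp in every list. It stayed within 1.5 times of 402 with a −log10 q of at least 5 (393), lists of equal length (390), 50% coverage by each list (299), no H3K27me3 within 5000 bp (378) and, added later, without the aRG-P and N H3K27me3 lists (420) or with chromosome X (405). With peaks within 1000 bp counted as 1, the share of members with a single peak was 100% in NEC and aRG-N, 99.3% in aRG-P and bRG and 98.8% in N. With a −log10 q of at least 5 it was 38.9% in aRG-P, 72.5% in aRG-N and 50.6% in bRG. With H3K27me3 peaks of at least 1000 bp only, 3.48% of members had one within 5000 bp. The median share of the region covered moved most in bRG, from 73.0% to 71.5%, over a −log10 q of at least 5 and lists of equal length. The median percentile of fold enrichment, ranked by −log10 p instead, moved most in N, from 82.6 to 80.2.

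The number of members with a difference of at least 2 times in any pair, 37, was 84 unscaled, 118 at a fold of 1.5 and 120 for the longest single peak. For NEC over aRG-P these counts were 59, 29 and 35, for aRG-P over NEC 3, 34 and 12, for NEC over N 50, 41 and 44, and for N over NEC 3, 36 and, near the 10 reported, 14. For aRG-N over aRG-P they were 17, 18 and 27, for bRG over aRG-P 10, 17 and 20, and for aRG-N over N 17, 35 and 39. The other pairs did not move without scaling. At a fold of 1.5 and for the longest peak they were 24 and 15 for bRG over N, 6 and 4 for N over bRG, 13 and 4 for N over aRG-N, 4 and 13 for aRG-N over bRG, 1 and 2 for bRG over aRG-N and 2 and 7 for aRG-P over bRG, and at 1.5 aRG-P over aRG-N had 4. Over all constitutive regions any pair differed in 28.2%, 38.2% and 22.1% under these settings, against 20.9%, 29.4% and 29.9% of the members. The members' share lay above that of all constitutive regions in 1 of 14 pair directions unscaled, in 4 at a fold of 1.5 and in 8 for the longest single peak, where NEC over aRG-P had 8.71% against 5.87%, NEC over N 10.9% against 6.39% and aRG-N over N 9.70% against 4.27%. A lower fold admits more regions by construction, and for the other settings the cause was not tested.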

Other observations

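Chromosome 11 holds a pair of neighbouring broad regions with unlike patterns. The region from 69208859 to 69212212, long in NEC alone, ends 10016 bp before the region from 69222229 to 69225909, which is long in every list except aRG-P. In aRG-P both are short, with 454 and 747 bp covered. Outside the autosomes, 3 regions on chromosome X met every other condition. A further 35 autosomal regions of at least 3000 bp lacked a peak in at least 1 cell type, so 643 of the 678 wide autosomal regions were constitutive. The closest pair of broad regions was separated by 306 bp.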
